A study of Mus musculus with 24 samples.

Results

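The response of 2 stable mouse macrophage lines to 5 h of lipopolysaccharide (LPS) was compared by RNA sequencing, one line with a construct for the nuclear receptor Nur77 and one with a construct for green fluorescent protein (GFP). The comparison was the interaction: the log2 fold change between 5 h and 0 h in the Nur77 line minus the same fold change in the GFP line. A positive interaction (called higher) marks a gene that rose more or fell less in the Nur77 line, and a negative one (called lower) a gene that rose less or fell more there. It used 16 of the 24 libraries of the series, all those labelled 0 h or 5 h. Interactions were tested for 12081 genes, with 1 transcript per gene, the one of highest mean count.

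The parent of both lines was RAW 264.7, a line of mouse macrophages. The groups were the Nur77 line after 5 h of 500 ng/ml LPS, the Nur77 line at 0 h, the GFP line after the same treatment and the GFP line at 0 h. Each held 4 libraries. Cells of every group, including those at 0 h, had received 50 ng/ml doxycycline for 18 h to switch on the construct, so none of the libraries shows a line without induction. Each construct was carried by 1 stable line, so the construct cannot be told apart from other differences between the 2 lines. Per library, 11015512.5 to 29275847 counts fell on the transcripts kept, 1 per gene, of 21422649.5 to 57880679.5 counts over all transcripts. Libraries of a group correlated at 0.989 to 0.996 with each other on log2 CPM (counts scaled to 1000000 per library). The first principal component held 64.2% of the variance and separated 5 h from 0 h, and the second component (24.7%) set the lines apart. Summed macrophage markers stood at 5671 to 6098 CPM in the Nur77 line at 5 h, 6024 to 6394 CPM in the Nur77 line at 0 h, 7633 to 7966 CPM in the GFP line at 5 h and 9343 to 9647 CPM in the GFP line at 0 h. Of their 9 genes in the table, 8 reached 1 CPM in every group, while epithelial markers were at 0 and summed lymphocyte, fibroblast and neutrophil markers stayed at or under 0.571, 3.51 and 4.37 CPM. These marker values were not scaled by the library factors (TMM) that were applied to the levels of single genes below. The factors ran from 1.07 to 1.15 at 0 h and from 0.890 to 0.916 at 5 h. The marker sums therefore do not compare 0 h with 5 h. In bulk libraries fewer expressing cells and less RNA per cell cannot be told apart.

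LPS is sensed on macrophages by Toll-like receptor 4 with CD14. The signal runs through 2 adaptor branches to the transcription factors NF-kB and AP-1 and to interferon regulatory factors, and the interferon that is made then acts back on the cells through Jak kinases and Stat factors. NF-kB switches on the genes of its own inhibitors, and AP-1 is built from Fos and Jun proteins. Nur77, encoded by Nr4a1, is itself an immediate early gene product of macrophages, and the study's title places its action on AP-1 target genes.

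The interaction passed the test in 2089 genes, 17.3% of those tested. It was higher in 920 (7.62%) and lower in 1169 (9.68%), and reached 1 on the log2 scale in 69 of the higher and 154 of the lower genes. At an unadjusted p under 0.05 there were 3639. Within each line the LPS response itself was far broader: 71.3% of genes were called in the Nur77 line and 68% in the GFP line. The median interaction over all genes was -0.01. Most differences were of size and not of direction: 550 of the 920 higher genes had risen and 164 had fallen in both lines by their group means, and 410 of the 1169 lower genes had risen and 541 had fallen in both. The remaining 206 higher genes rose in the mean of the Nur77 line and fell in that of the GFP line, and the remaining 218 lower genes did the opposite. The median size was 0.37 among the higher genes and 0.47 among the lower ones. In the fit of all 24 libraries 961 genes were called, 336 higher and 625 lower.

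**Figure D1:**
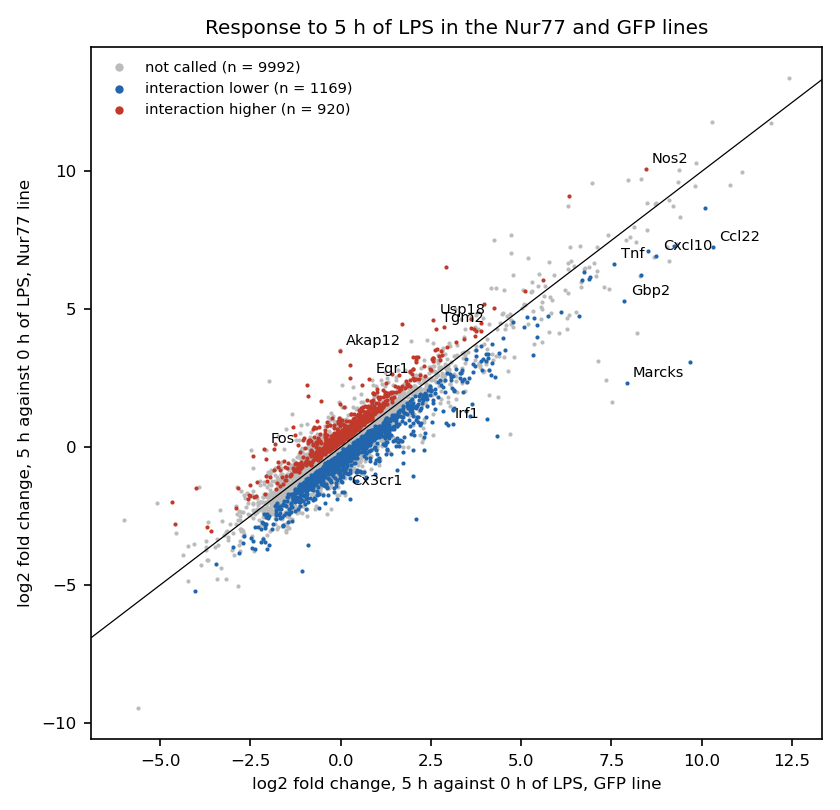
Each point is 1 of the 12081 genes tested; the horizontal axis is the fitted log2 fold change between 5 h and 0 h of LPS in the GFP line and the vertical axis the same in the Nur77 line. Red points are the 920 genes with a higher interaction, blue points the 1169 with a lower one, and the diagonal marks equal responses; Marcks, Ccl22 and Irf1 lie far below it and Akap12 above it.

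An interaction on the log2 scale can come from the level before LPS, from the level at 5 h or from both, so the levels were set side by side. The lines were called apart at a time where their group means differed by at least 1 on log2(CPM + 0.5). Of the 1169 lower genes, 925 were apart at neither time, 148 only at 5 h, 29 only at 0 h and 67 at both. Of the 920 higher genes, 803 were apart at neither time, 37 only at 5 h, 43 only at 0 h and 37 at both. The change in CPM ran against the sign of the interaction in 51 of the higher and 107 of the lower genes: the line with the larger fold change gained or lost fewer CPM.

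**Figure D2:**
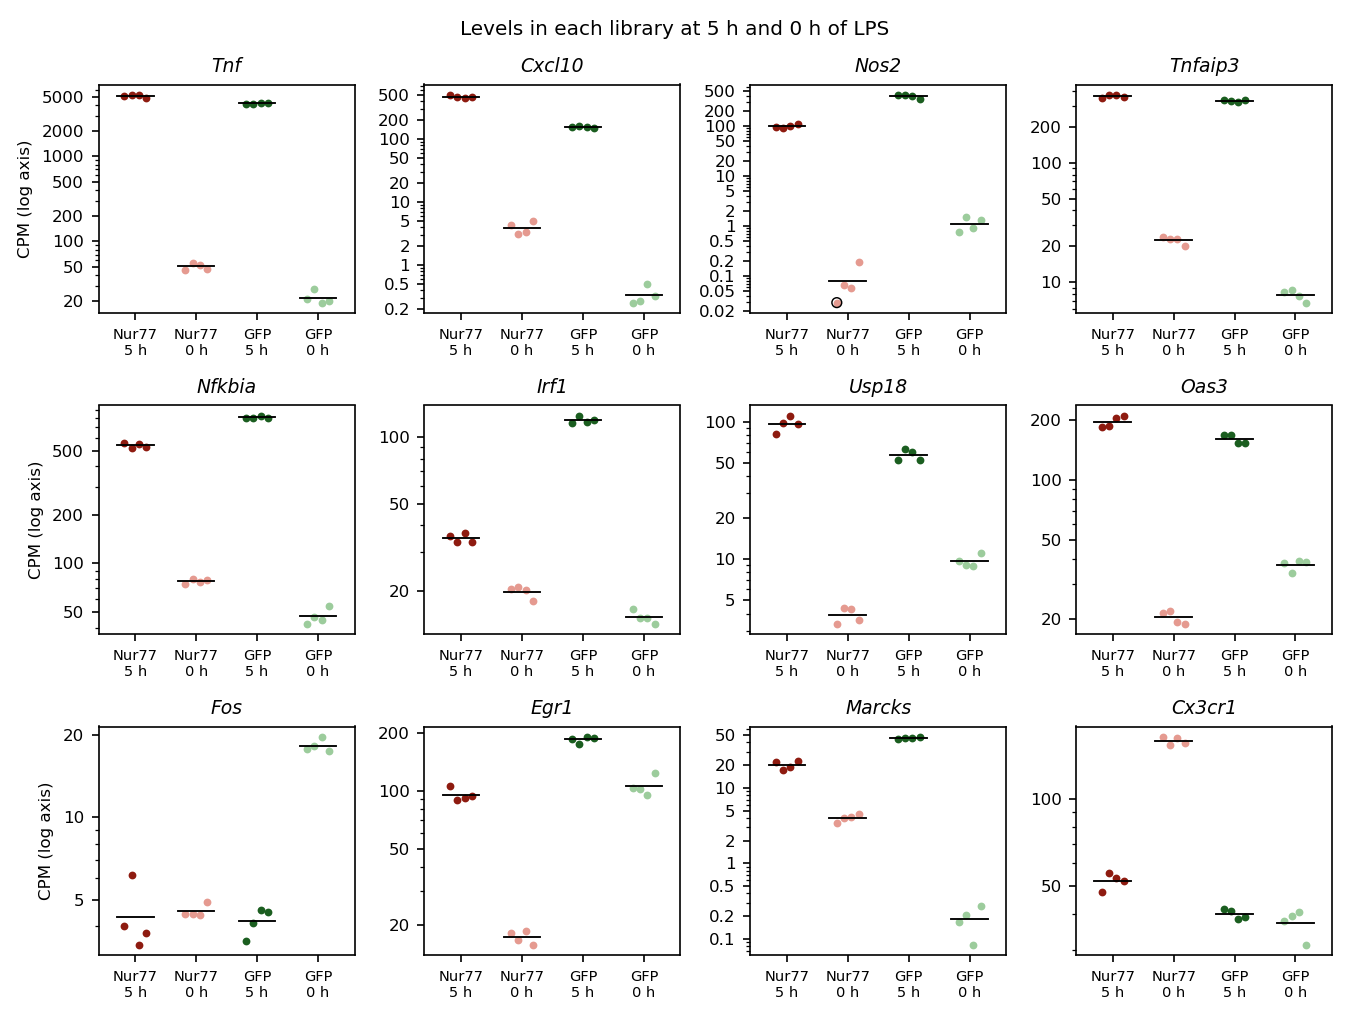
Each point is the level of a gene in 1 library (CPM, log axis), with the 4 libraries of each group side by side and a line at their mean; an open circle marks a library at 0, drawn below the lowest positive value of that gene. Tnf and Tnfaip3 differ between the lines mainly at 0 h, Cxcl10 at both times and Irf1 mainly at 5 h, and Fos is high in the GFP line at 0 h alone.

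Tumour necrosis factor, a main cytokine of the LPS response, gained more CPM in the line with the smaller fold change. Tnf (NM_013693, chromosome 17, 35199367 to 35202007, GRCm38) stood at 5101, 5215, 5248 and 4817 CPM in the Nur77 line at 5 h and 46.7, 56.6, 52.9 and 47.5 CPM at 0 h. For Tnf, the GFP line had 4119, 4108, 4231 and 4235 CPM at 5 h and 21, 27.7, 19.2 and 20.1 CPM at 0 h. The Nur77 libraries were above the GFP libraries at both times, with no overlap. The log2 rise was 6.64 in the Nur77 line and 7.58 in the GFP line. The interaction was -0.94 (SE 0.12, adjusted p = 2.92e-05). In CPM the rise was the larger one in the Nur77 line, 5044 against 4151. The lower interaction of Tnf stands beside a start level 1.22 higher on the log2 scale in the Nur77 line (adjusted p = 7e-09) and an end level 0.29 higher (adjusted p = 0.00396).

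Among the inflammatory cytokines 20 of 23 listed genes were tested. The interaction was higher in 3 and lower in 3, beside 7.62% higher and 9.68% lower over all genes. No list was tested against these shares. The median was 0.17, and the median difference between the lines was -0.75 at 5 h and -0.63 at 0 h. Osm, encoding oncostatin M, reached 78.1 ± 2.99 CPM in the Nur77 line at 5 h over 6.92 ± 0.958 CPM at 0 h, against 65.3 ± 3.31 and 9.63 ± 0.376 CPM in the GFP line (SD, n = 4 each). Its interaction was 0.74 (SE 0.11, adjusted p = 3.08e-05). Tnfsf9 encodes the ligand of the T cell receptor 4-1BB. It reached 89.2 ± 4.75 CPM over 29.3 ± 2.36 CPM in the Nur77 line, against 120.0 ± 2.6 CPM over 25.4 ± 2.16 CPM in the GFP line. The interaction was -0.64 (SE 0.09, adjusted p = 2.15e-05). Neither call was made in the fit of all 24 libraries (adjusted p = 0.139 for Osm and 0.0802 for Tnfsf9), where the list held 0 higher and 2 lower genes.

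Il1b, Il6 and Il12b were nearly silent before LPS, so their fold changes rested on few counts. Il1b reached 468, 495, 505 and 473 CPM in the Nur77 line at 5 h and 919, 925, 963 and 950.1 CPM in the GFP line at 5 h, with 8.0 and 17 counts summed over the 4 libraries at 0 h. Every Nur77 library at 5 h was below every GFP library. The interaction was -0.17 with a 95% confidence interval of -2.31 to 1.96, too wide to place the 2 rises in order. Il6 reached 18.6 ± 1.72 CPM in the Nur77 line and 27.8 ± 3.82 CPM in the GFP line at 5 h, with 2.0 and 5.0 counts summed at 0 h and an interaction of 0.34 (95% confidence interval -1.53 to 2.22, adjusted p = 0.83). Leaving out single 0 h libraries turned the sign of both values. Il1b was 2.07 without Nur77 line 0 h replicate 4, 0.11 without GFP line 0 h replicate 3 and 0.08 without GFP line 0 h replicate 4. Il6 was at or just below 0 (-0.000333 and -0.064) without Nur77 line 0 h replicate 2 or 3. Il12b, a subunit of interleukin 12, was at 0 in all Nur77 libraries at 0 h, so no interaction is given. Its levels were 0.768 ± 0.346 CPM in the Nur77 line at 5 h, and 2.76 ± 0.685 CPM at 5 h and 0.0325 ± 0.0408 CPM at 0 h in the GFP line. Ifnb1, encoding interferon beta, and Il10 had too few counts to be tested: at 5 h Ifnb1 had 20 counts in the Nur77 line and 10.5 in the GFP line, with 0 in both at 0 h, and Il10 had at most 6 in any group.

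Chemokines, which draw leukocytes to a site, differed in both directions. Of 15 tested genes, the interaction was higher in 3 and lower in 5 (7.62% and 9.68% over all genes), with a median of -0.33. The lower count was 3 without Nur77 line 0 h replicate 1 and, in turn, without replicate 2 or without GFP line 5 h replicate 3, and in the fit of all 24 libraries 1 gene was higher and 2 were lower. Cxcl10, the ligand of the receptor CXCR3 and a product of interferon and NF-kB signalling (NM_021274, chromosome 5, 92346638 to 92348889), stood at 509, 463, 462 and 478 CPM in the Nur77 line at 5 h and 4.43, 3.14, 3.31 and 4.96 CPM at 0 h. In the GFP line it stood at 155, 165, 158 and 152 CPM at 5 h and 0.254, 0.274, 0.505 and 0.318 CPM at 0 h. All Nur77 libraries were above all GFP libraries at each time, by 1.60 on the log2 scale at 5 h and 3.43 at 0 h. The interaction was -1.82 (SE 0.24, adjusted p = 9.66e-06), and with all 24 libraries in the fit its adjusted p was 0.0837. In CPM the gain was 474 in the Nur77 line and 157 in the GFP line.

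The 250 bases upstream of the RefSeq start of Cxcl10 (chr5:92348890-92349139, minus strand, GRCm38.p6) are shown because they hold letters of all 3 LPS-driven factor families named above. Capitals mark matches to an interferon-stimulated response element (GAAA, any 2 bases and GAAA, at -213 to -204), to the NF-kB site named kB (-159 to -150 and -103 to -94) and to an AP-1 site (TGANTCA, -74 to -68), counted from the start site on both strands.
Cxcl10: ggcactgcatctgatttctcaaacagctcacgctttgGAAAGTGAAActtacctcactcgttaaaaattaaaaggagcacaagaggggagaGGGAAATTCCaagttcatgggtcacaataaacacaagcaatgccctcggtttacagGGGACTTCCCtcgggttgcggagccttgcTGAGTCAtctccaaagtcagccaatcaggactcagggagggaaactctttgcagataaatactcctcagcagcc
Over the promoters of the same length in the RefSeq table (32851), the kB site was found in 3.90%, the interferon element in 2.98% and the AP-1 site in 6.75%. Among genes with a lower interaction the shares were 7.99%, 3.46% and 6.59%, among genes with a higher one 5.97%, 3.98% and 7.29%, and among all tested genes 5.34%, 3.41% and 5.42%. Only genes with a promoter in the RefSeq table are covered: 926 lower, 754 higher and 9631 tested ones. A match is a run of letters and no measured binding.

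Ccl22, the ligand of CCR4, had the second largest lower interaction of those named for size. It reached 367 ± 10.6 CPM in the Nur77 line at 5 h over 2.4 ± 0.348 CPM at 0 h. For Ccl22, the GFP line had 257 ± 15.8 CPM at 5 h and 0.179 ± 0.129 CPM at 0 h, where 1 library had no count. The interaction was -3.08 (SE 0.28, adjusted p = 5.42e-08), while the gain in CPM was larger in the Nur77 line (365 against 257). Ccl2, the main monocyte attractant, differed far more in level than in fold change: 736, 687, 713 and 718 CPM in the Nur77 line at 5 h and 8.54, 9.13, 9.82 and 7.41 CPM at 0 h. For Ccl2, the GFP line had 2386, 2500.1, 2599 and 2373 CPM at 5 h and 17.4, 24.5, 24.8 and 24.5 CPM at 0 h. The Nur77 line was lower at both times without overlap, and the interaction was small, -0.39 (SE 0.12, adjusted p = 0.0363). That call was lost (adjusted p = 0.05085 to 0.11) without any one of Nur77 line 5 h replicates 2, 3 and 4, Nur77 line 0 h replicates 1, 2 and 3 and GFP line 5 h replicates 2 and 3. It was also lost without a filter on low counts (adjusted p = 0.0649) and in the fit of all 24 libraries (adjusted p = 0.778). Ccl3, which attracts monocytes and T cells, ended at 6305 ± 297 CPM in the Nur77 line and 5974 ± 92.6 CPM in the GFP line from 93.8 ± 4.01 and 122 ± 12.8 CPM at 0 h. Its interaction was 0.46 (SE 0.08, adjusted p = 0.000195), and with all 24 libraries the adjusted p was 0.123.

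NF-kB subunits and the genes that feed back on NF-kB had mostly lower interactions. The list held 26 tested genes, of which 18 were lower, 1 was higher (Ikbkb, 0.17) and 7 were not called, beside 9.68% lower and 7.62% higher over all genes. The median interaction was -0.44. The median member was 0.43 higher in the Nur77 line at 0 h and 0.20 lower at 5 h (median difference -0.20). In the fit of all 24 libraries 14 were lower and 0 higher. The single higher gene was called in only 3 of the 16 fits that each left out 1 library, those without GFP line 5 h replicate 4 and GFP line 0 h replicate 2 or 4.

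Nfkbie, which encodes the inhibitor IkB epsilon (NM_008690, chromosome 17, 45555700 to 45563169), stood at 45.7, 52.5, 48.1 and 50.5 CPM in the Nur77 line at 5 h and 16.6, 19.9, 17 and 20.7 CPM at 0 h. For Nfkbie, the GFP line had 93.7, 99, 93.4 and 91.4 CPM at 5 h and 10.6, 11.4, 11.3 and 10.5 CPM at 0 h. The order of the lines turned over: all Nur77 libraries were higher at 0 h and all were lower at 5 h. The interaction was -1.71 (SE 0.10, adjusted p = 5.42e-11). Nfkbia, the gene of IkB alpha (NM_010907, chromosome 12, 55489409 to 55492647), turned over in the same way, with 563, 523, 549.9 and 527 CPM in the Nur77 line at 5 h and 74.6, 79.7, 77.1 and 78.5 CPM at 0 h. For Nfkbia, the GFP line had 801, 804, 825 and 799.7 CPM at 5 h and 42.3, 46.5, 44.5 and 54.3 CPM at 0 h. Its interaction was -1.30 (SE 0.08, adjusted p = 7.73e-11).

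Tnfaip3 encodes A20, an enzyme that removes ubiquitin from signalling proteins upstream of NF-kB (NM_009397, chromosome 10, 19000910 to 19015410). It stood at 348, 374, 371 and 359.8 CPM in the Nur77 line at 5 h and 24.2, 23.2, 23.1 and 20.3 CPM at 0 h. For Tnfaip3, the GFP line had 340.0, 334, 327 and 338 CPM at 5 h and 8.29, 8.56, 7.66 and 6.73 CPM at 0 h. The 5 h levels lay close, 0.12 apart on the log2 scale, and the 0 h levels did not (1.55). The interaction was -1.43 (SE 0.09, adjusted p = 7.73e-11), and the gain in CPM was 341 in the Nur77 line and 327 in the GFP line. Traf1, which binds to receptors of the tumour necrosis factor family, also started higher in the Nur77 line but ended slightly lower there. It had 264 ± 13.6 and 3.49 ± 0.27 CPM in the Nur77 line at 5 h and 0 h, and 302 ± 7.48 and 0.877 ± 0.286 CPM in the GFP line. Its interaction was -2.09 (SE 0.16, adjusted p = 3.33e-09). Chosen after their values were seen, the subunit genes Relb, Nfkb2, Nfkb1 and Rela had interactions of -1.27, -0.95, -0.54 and -0.23, and Rel was not called.

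**Figure D3:**
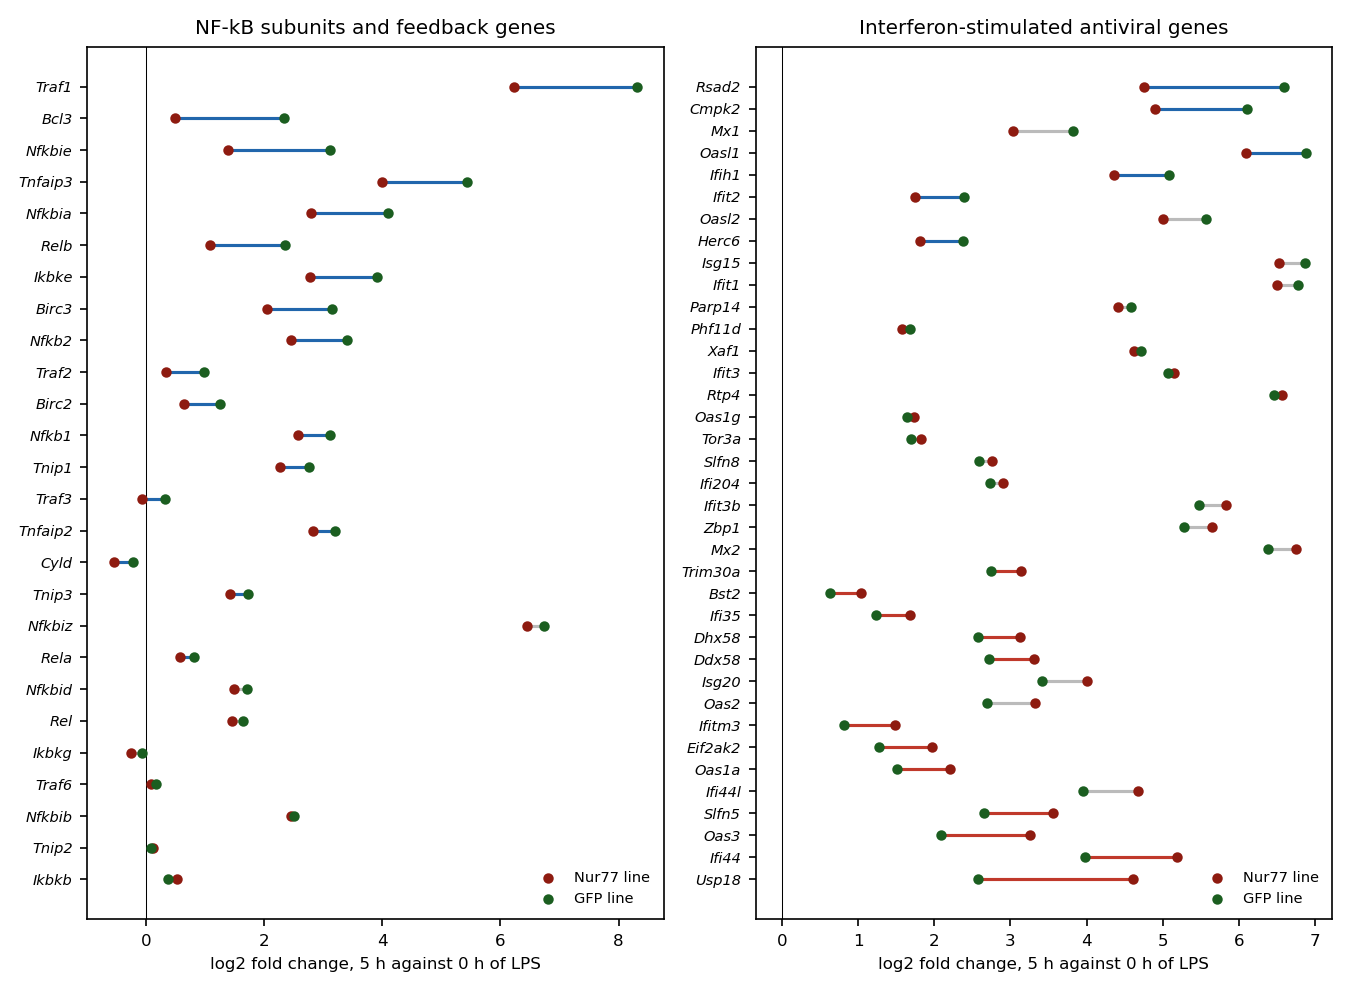
For each member of 2 gene lists, the points give the fitted log2 fold change between 5 h and 0 h of LPS in the Nur77 line (dark red) and the GFP line (green), and the bar between them is the interaction: blue where called lower, red where called higher, grey where not called. NF-kB genes carry 18 blue bars and 1 red one, and the antiviral genes 12 red and 6 blue.

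Receptors and adaptors that sense bacterial products had more lower than higher members. Of 25 tested members of the Toll-like receptor chain, 10 were lower and 2 higher (9.68% and 7.62% over all genes), with a median of -0.14. With all 24 libraries 6 were lower and 2 higher. Tlr2, the receptor of bacterial lipoproteins (NM_011905, chromosome 3, 83836272 to 83841824), stood at 524, 604, 589.7 and 581 CPM in the Nur77 line at 5 h and 235, 227, 236 and 235 CPM at 0 h. For Tlr2, the GFP line had 866, 912, 896 and 880.2 CPM at 5 h and 127, 127, 135 and 110.3 CPM at 0 h. The Nur77 line was higher at 0 h and lower at 5 h in every library, and the interaction was -1.53 (SE 0.07, adjusted p = 2.35e-12). Ticam2, the adaptor also called TRAM that leads Toll-like receptor 4 to the interferon branch, stood at 39 ± 1.98 CPM at 5 h and 38.7 ± 2.74 CPM at 0 h in the Nur77 line (adjusted p of the change = 0.86). In GFP cells it was at 94.1 ± 5.43 CPM at 5 h and 48.6 ± 3.52 CPM at 0 h. Its interaction was -0.94 (SE 0.09, adjusted p = 1.25e-07). Cd14, the co-receptor that hands LPS over, went the other way. It had 2473 ± 123 CPM over 549 ± 8.76 CPM in the Nur77 line and 1755 ± 40 CPM over 580.4 ± 27.2 CPM in the GFP line, and its interaction was 0.58 (SE 0.06, adjusted p = 1.83e-07). Tlr4 itself was at -0.27 (SE 0.09, adjusted p = 0.0412), and Tlr8 was the other higher member at 1.35; both were named after their values were seen.

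Interferon-stimulated antiviral genes split. All 37 listed genes were tested. Of these 12 were higher and 6 lower (7.62% and 9.68% over all genes), 19 were not called, and the median was 0.18. The fit of all 24 libraries gave 9 higher and 6 lower. The line difference had a median of 0.14 at 5 h and -0.04 at 0 h. Usp18, which removes ISG15 from proteins and restrains the interferon receptor (NM_011909, chromosome 6, 121245906 to 121270917), stood at 81.8, 98, 110.0 and 95.8 CPM in the Nur77 line at 5 h and 3.38, 4.36, 4.32 and 3.61 CPM at 0 h. For Usp18, the GFP line had 52.6, 63.3, 60.5 and 52.6 CPM at 5 h and 9.65, 8.97, 8.88 and 11 CPM at 0 h. The Nur77 line started below and ended above the GFP line in every library, and the interaction was 2.04 (SE 0.16, adjusted p = 1.02e-08). Oas3, a sensor that makes 2'-5' oligoadenylate when double-stranded RNA is present, reached 184, 187, 204 and 209.6 CPM in the Nur77 line at 5 h from 20.5 ± 1.54 CPM at 0 h. For Oas3, the GFP line had 167, 168, 154 and 153 CPM at 5 h and 37.5 ± 2.37 CPM at 0 h. Its interaction was 1.16 (SE 0.09, adjusted p = 2.89e-09), and reads that related Oas genes share may have been counted at more than 1 of them. Ifitm3, a membrane protein that blocks virus entry, rose by 1.48 in the Nur77 line and 0.82 in the GFP line (interaction 0.66 (SE 0.05, adjusted p = 5.66e-09)). It stayed lower in the Nur77 line at both times, with 765 ± 22.5 CPM at 5 h and 274 ± 10.9 CPM at 0 h. For Ifitm3, the GFP line had 1027 ± 22.6 CPM at 5 h and 583 ± 9.91 CPM at 0 h. Named after their values were seen, Ifi44, Slfn5 and the RNA sensor kinase gene Eif2ak2 were higher at 1.21, 0.90 and 0.69, and the viperin gene Rsad2, its neighbour Cmpk2 and the RNA sensor gene Ifih1 were lower at -1.84, -1.21 and -0.72.

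The receptors, kinases and factors that carry the interferon signal were lower more often than higher. Of 21 tested, 9 were lower and 4 higher (9.68% and 7.62% over all genes), with a median of -0.18. With all 24 libraries 6 were lower and 1 was higher. Irf1, a transcription factor that drives interferon-gamma and inflammatory genes (NM_008390, chromosome 11, 53770014 to 53778374), stood at 35.7, 33.5, 37 and 33.6 CPM in the Nur77 line at 5 h and 20.5, 20.9, 20.4 and 18 CPM at 0 h. For Irf1, the GFP line had 115, 125, 117 and 119.8 CPM at 5 h and 16.6, 15.1, 15.1 and 14.3 CPM at 0 h. The log2 difference of the Nur77 line from the GFP line was -1.77 at 5 h and 0.39 at 0 h, and the interaction was -2.16 (SE 0.09, adjusted p = 2.99e-13). Ifnar1, a chain of the receptor of type I interferon, rose in the GFP line to 168 ± 4.94 CPM at 5 h over 111 ± 7.27 CPM at 0 h, and in the Nur77 line stood at 126 ± 5.48 CPM at 5 h and 129.7 ± 4.12 CPM at 0 h (adjusted p of the change = 0.385); its interaction was -0.65 (SE 0.07, adjusted p = 5.67e-07). Jak2, a kinase of the interferon-gamma receptor, rose in both lines and had an interaction of -0.64 (SE 0.07, adjusted p = 6.46e-07) (adjusted p = 0.0689 with all 24 libraries). Its levels were 351 ± 11.8 CPM at 5 h and 65.8 ± 4.96 CPM at 0 h in the Nur77 line, and 395 ± 9.48 and 47.5 ± 1.65 CPM in the GFP line. Higher members, named after their values were seen, included Irf7, Stat2 and Irf9, at 0.82, 0.52 and 0.43. Stat2 and Irf9 carry the signal of type I interferon to the nucleus, and Irf7 amplifies interferon production.

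Gbp2, a guanylate-binding protein of the interferon-gamma response, was among the 8 genes named for the largest lower interactions. It reached 18.7, 19.3, 17 and 19.3 CPM in the Nur77 line at 5 h and 76.7, 89.9, 89.3 and 85.3 CPM in the GFP line at 5 h, and stood at 0.456 ± 0.165 and 0.359 ± 0.137 CPM at 0 h. The interaction was -2.58 (SE 0.37, adjusted p = 3.76e-05). Gbp genes are near copies of each other, so the count of this gene is uncertain. Of 15 tested immunity GTPases 2 were higher and 3 lower (7.62% and 9.68% over all genes), and with all 24 libraries 1 was higher and 1 lower. The higher count was 1 without GFP line 5 h replicate 3 or GFP line 0 h replicate 3, and the lower count 1 without Nur77 line 0 h replicate 4, GFP line 5 h replicate 2 or GFP line 0 h replicate 4.

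AP-1 subunits and their partners were tested in 16 of 18 listed genes. The interaction was higher in 6 and lower in 3 (7.62% and 9.68% over all genes), and the median was 0.30. These counts were 4 and 2 with all 24 libraries in the fit. Fos, the subunit gene with the largest value (NM_010234, chromosome 12, 85473890 to 85477274), stood at 4.02, 6.14, 3.43 and 3.77 CPM in the Nur77 line at 5 h and 4.43, 4.43, 4.38 and 4.9 CPM at 0 h. For Fos, the GFP line had 3.54, 4.12, 4.59 and 4.5 CPM at 5 h and 17.8, 18.2, 19.7 and 17.4 CPM at 0 h. The GFP line at 0 h was the group that stood apart: its libraries were all above those of the other 3 groups. Fos fell by 2.13 in the GFP line on the log2 scale (adjusted p = 7.74e-13). The change in the Nur77 line was -0.07 and did not pass the test (adjusted p = 0.698). The interaction was 2.06 (SE 0.19, adjusted p = 1.11e-07). The levels at 5 h differed by 0.05 (adjusted p = 0.798).

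The 250 bases upstream of the RefSeq start of Fos (chr12:85473640-85473889, plus strand, GRCm38.p6) are shown for comparison with Cxcl10. Capitals mark the kB match, on the minus strand at -214 to -205, and a TGACGT match, the core of the cyclic AMP response element, at -66 to -61. No AP-1 or interferon element letters were found in this window.
Fos: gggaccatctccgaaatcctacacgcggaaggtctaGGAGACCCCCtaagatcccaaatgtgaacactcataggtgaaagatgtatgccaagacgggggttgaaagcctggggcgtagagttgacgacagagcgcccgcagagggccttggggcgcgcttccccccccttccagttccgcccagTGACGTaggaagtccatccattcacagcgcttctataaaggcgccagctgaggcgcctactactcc
TGACGT was found in 6.47% of all promoters, 11.9% of those of tested genes, 12.6% of those of genes with a higher interaction and 8.86% of those with a lower one. AAAGGTCA, the response element that Nur77 binds as a monomer, was found in 1.34%, 1.10%, 1.19% and 1.08% of the same sets. In the same windows of Tnf and Ptgs2 none of the 5 motifs was found.

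Jun, the usual partner of Fos, was higher in the Nur77 line at both times, with 80.9, 76.8, 76.4 and 73 CPM at 5 h and 89.7, 82.2, 80.4 and 83.4 CPM at 0 h, against 42.8, 42.7, 44.5 and 44.7 CPM at 5 h and 58.8, 58.5, 60.2 and 68.1 CPM at 0 h in the GFP line. It fell in both lines and fell less in the Nur77 line, with an interaction of 0.37 (SE 0.08, adjusted p = 0.00162) that was not called with all 24 libraries (adjusted p = 0.302). Fosl2, another Fos family member, reached 138 ± 6.08 CPM in the Nur77 line and 140.3 ± 3.69 CPM in the GFP line at 5 h, over 49.6 ± 2.32 and 74.6 ± 5.29 CPM at 0 h. Its interaction was 0.57 (SE 0.07, adjusted p = 8.36e-06). The 3 lower members, named after their values were seen, were Maff (-0.70), Jund (-0.51) and Atf3 (-0.30).

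Target genes of AP-1 were tested in 25 cases. Of these 5 were higher and 7 lower (7.62% and 9.68% over all genes), and the median was 0.12. The median member was 1.06 lower in the Nur77 line at 5 h (median difference -1.06) and 0.84 lower at 0 h (-0.84). With all 24 libraries 1 was higher and 4 were lower. Plau, the urokinase gene (NM_008873, chromosome 14, 20836662 to 20843388), moved in opposite directions, with 328, 348, 343 and 335 CPM in the Nur77 line at 5 h and 607, 617, 631 and 604 CPM at 0 h. For Plau, the GFP line had 578, 637, 632 and 602 CPM at 5 h and 433, 434, 457 and 436 CPM at 0 h. It fell in the Nur77 line (-0.86) and rose in the GFP line (0.48), and the interaction was -1.34 (SE 0.05, adjusted p = 2.99e-13). Mt2, a metallothionein that binds zinc and copper, reached 178, 181, 195 and 171 CPM in the Nur77 line at 5 h from 139 ± 5.84 CPM at 0 h. For Mt2, the GFP line had 836, 862, 830.2 and 802 CPM at 5 h and 249 ± 11.2 CPM at 0 h. Its interaction was -1.36 (SE 0.07, adjusted p = 2.35e-12). Cd44, the hyaluronan receptor gene, was lower in the Nur77 line at both times, with 1885 ± 74.2 CPM at 5 h and 350 ± 10.3 CPM at 0 h, against 2847 ± 52.9 and 696 ± 23.9 CPM in the GFP line. It rose by 2.43 in the Nur77 line and 2.03 in the GFP line, an interaction of 0.39 (SE 0.05, adjusted p = 1.04e-05) that was not called with all 24 libraries (adjusted p = 0.103).

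Among 23 immediate early genes 6 were higher and 3 lower (7.62% and 9.68% over all genes), with a median of 0.06. Without GFP line 0 h replicate 4 the lower ones were 5, and with all 24 libraries 4 were higher and 3 lower. Egr1, a zinc finger factor that is induced within minutes, stood at 106, 89.5, 91.3 and 93.3 CPM in the Nur77 line at 5 h and 18.2, 16.8, 18.6 and 15.9 CPM at 0 h. For Egr1, the GFP line had 186, 175, 189.9 and 187 CPM at 5 h and 103, 102, 95.1 and 123 CPM at 0 h. The GFP line was higher at both times in every library. The gain was nearly equal in CPM (77.6 in the Nur77 line and 78.5 in the GFP line) and unequal on the log2 scale. The interaction was 1.66 (SE 0.10, adjusted p = 2.42e-10). Btg2, an antiproliferative gene, rose in the Nur77 line to 24.5 ± 0.767 CPM at 5 h, against 8.94 ± 0.998 CPM at 0 h, and stood at 15.5 ± 1.58 and 14.4 ± 1.12 CPM in the GFP line (adjusted p of the change = 0.351); the interaction was 1.37 (SE 0.13, adjusted p = 7.75e-08). Zfp36l2, which speeds the decay of AU-rich mRNAs, fell to 38.9 ± 1.15 CPM in the Nur77 line at 5 h, against 124 ± 2.21 CPM at 0 h, and to 60.7 ± 1.06 CPM in the GFP line at 5 h, against 119 ± 1.59 CPM at 0 h. The interaction was -0.71 (SE 0.06, adjusted p = 6.21e-09).

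Nr4a1 (NM_010444, chromosome 15, 101253902 to 101274795), the mouse gene of Nur77, stood at 4.55, 5.13, 5.21 and 4.78 CPM in the Nur77 line at 5 h and 2.74, 3.68, 3.26 and 3.35 CPM at 0 h. For Nr4a1, the GFP line had 3.15, 3.14, 3.12 and 2.1 CPM at 5 h and 3.13, 2.47, 3.2 and 3.36 CPM at 0 h. At 5 h all Nur77 libraries were above the GFP libraries, and at 0 h the groups overlapped. Neither the sequence nor the species of the construct is given in the sources used here. These counts therefore do not check the labels. The interaction was 0.65 (SE 0.21, adjusted p = 0.0377). It did not pass (adjusted p = 0.051 to 0.0725) with a replicate block, with a block within line, with DESeq2, without a filter on low counts, or without any one of Nur77 line 5 h replicates 2 and 3, Nur77 line 0 h replicates 1, 3 and 4, GFP line 5 h replicate 4 and GFP line 0 h replicates 1, 3 and 4, nor with all 24 libraries (adjusted p = 0.544).

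MAP kinase phosphatases switch off the kinases upstream of AP-1. Of 12 tested genes 4 were higher and 3 lower (7.62% and 9.68% over all genes), with a median of -0.12. With all 24 libraries the counts were 2 and 1. Dusp2 reached 19.4, 24, 25.6 and 23.8 CPM in the Nur77 line at 5 h from 5.83 ± 0.954 CPM at 0 h. For Dusp2, the GFP line had 7.59, 8.43, 8.07 and 8.71 CPM at 5 h and 4.46 ± 0.769 CPM at 0 h. Its interaction was 1.07 (SE 0.18, adjusted p = 0.000174). Dusp5, a phosphatase of ERK in the nucleus, started level in the lines (6.0 ± 1.01 CPM in the Nur77 line and 6.15 ± 0.673 CPM in the GFP line) and ended at 40.2 ± 3.33 and 23.7 ± 1.3 CPM. Its interaction was 0.81 (SE 0.15, adjusted p = 0.000395). Dusp7 fell in the Nur77 line to 17.5 ± 0.747 CPM at 5 h, against 25.6 ± 1.24 CPM at 0 h, and stood at 31.5 ± 0.897 and 29.8 ± 2.2 CPM in the GFP line; the interaction of -0.63 (SE 0.09, adjusted p = 3.17e-05) was not called with all 24 libraries (adjusted p = 0.279).

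Macrophage effector genes, which make nitric oxide, prostaglandins, itaconate and oxidants, were higher in 3 and lower in 4 of 17 tested (7.62% and 9.68% over all genes). In the fit of all 24 libraries 2 were higher and 2 lower. Nos2, the inducible nitric oxide synthase gene (NM_010927, chromosome 11, 78920787 to 78960226), stood at 96.8, 91.4, 102 and 108 CPM in the Nur77 line at 5 h and 0, 0.0682, 0.0592 and 0.193 CPM at 0 h. For Nos2, the GFP line had 420.5, 419, 400.5 and 356 CPM at 5 h and 0.761, 1.51, 0.926 and 1.32 CPM at 0 h. The Nur77 line was lower at both times without overlap. Its interaction was higher, 1.64 (SE 0.53, adjusted p = 0.0363), beside a summed 5.0 counts in the Nur77 line at 0 h and 82 in the GFP line at 0 h. The gain was 99.4 CPM in the Nur77 line and 398 CPM in the GFP line. The call was lost (adjusted p = 0.0542 to 0.108) without any one of Nur77 line 0 h replicates 1, 2 and 3 and GFP line 0 h replicates 2 and 4, with a replicate block (adjusted p = 0.0715) and with all 24 libraries (adjusted p = 0.228). Without Nur77 line 0 h replicate 4 the interaction of Nos2 was 2.43 (adjusted p = 0.0168).

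Ptgs2, which encodes cyclooxygenase 2, reached 1355, 1142, 1214 and 1417 CPM in the Nur77 line at 5 h from 3.1 ± 0.268 CPM at 0 h. For Ptgs2, the GFP line had 1768, 1746, 1752 and 1699.8 CPM at 5 h and 1.56 ± 0.605 CPM at 0 h. Its interaction was -1.42 (SE 0.20, adjusted p = 7.13e-05), with an adjusted p of 0.141 in the fit of all 24 libraries. Acod1, the enzyme gene of itaconate, reached 3540.2, 3614, 3627 and 3452 CPM in the Nur77 line and 4367, 4275, 4437 and 4291 CPM in the GFP line at 5 h, from 2.42, 3.41, 3.43 and 4.64 CPM and 1.27, 4.66, 1.26 and 1.14 CPM at 0 h. GFP line 0 h replicate 2 was far above the other 3 libraries of its group. The interaction was -1.14 (95% confidence interval -2.01 to -0.28) and missed the threshold (adjusted p = 0.0683), but without that library it was -1.81 (adjusted p = 1.4e-07). It passed with all 24 libraries in the fit (adjusted p = 0.0376). Sod2, the mitochondrial superoxide dismutase, and Clec4d, a lectin receptor of fungal and mycobacterial sugars, had higher interactions of 0.31 (SE 0.05, adjusted p = 0.000123) and 0.73 (SE 0.07, adjusted p = 1.89e-07). Sod2 had 720 ± 9.74 CPM at 5 h and 103 ± 1.23 CPM at 0 h in the Nur77 line, against 642 ± 11.9 and 114 ± 4.4 CPM in the GFP line. Clec4d was lower in the Nur77 line at both times, with 339 ± 14.7 CPM at 5 h and 122 ± 3.24 CPM at 0 h, against 434 ± 8.08 and 260 ± 23.1 CPM in the GFP line.

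Genes of antigen presentation and costimulation were lower in 7 and higher in 1 of 18 tested (9.68% and 7.62% over all genes), with a median of -0.12. The higher gene, Icosl (0.56), was lost without Nur77 line 0 h replicate 3 or 4 and with all 24 libraries, where 6 were lower. Cd274, the checkpoint ligand PD-L1 (NM_021893, chromosome 19, 29362107 to 29388095), reached 56.5, 54.5, 58.6 and 58.4 CPM in the Nur77 line at 5 h from 14.1 ± 0.715 CPM at 0 h. For Cd274, the GFP line had 150.1, 149, 151 and 146 CPM at 5 h and 19.9 ± 2.42 CPM at 0 h. The Nur77 line was lower at both times, and the interaction was -0.88 (SE 0.09, adjusted p = 5.09e-07). Psmb9, a subunit of the immunoproteasome, fell in the Nur77 line to 9.2 ± 0.247 CPM at 5 h, against 14.7 ± 1.51 CPM at 0 h, and stood at 14.1 ± 0.535 and 12.5 ± 1.16 CPM in the GFP line; its interaction was -0.85 (SE 0.12, adjusted p = 3.92e-05). H2-Q4, a class I gene with near copies, was at -0.50 (SE 0.09, adjusted p = 0.000277). It had 75.5 ± 4.4 CPM at 5 h and 57.4 ± 2.83 CPM at 0 h in the Nur77 line, against 84.2 ± 2.51 and 45.4 ± 4.44 CPM in the GFP line.

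**Figure D4:**
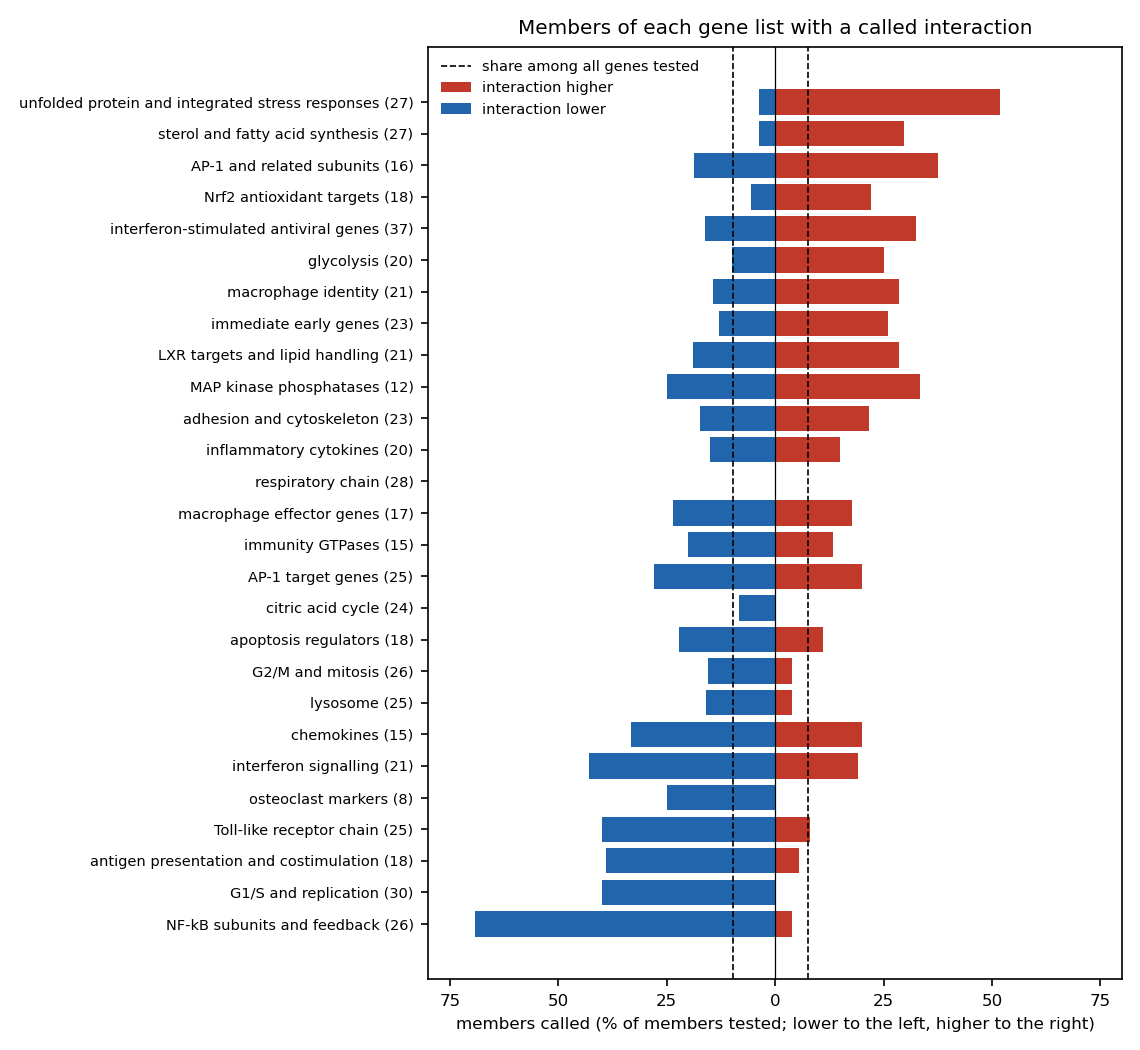
For each gene list, with the number of tested members in brackets, bars give the share of members called higher (red, to the right) and lower (blue, to the left), in percent; dashed lines mark 7.62% and 9.68%, the shares over all genes tested. The unfolded protein list reaches farthest to the right (14 of 27) and the NF-kB list farthest to the left (18 of 26).

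The unfolded protein and integrated stress responses, which cells use when protein folding or translation is strained, gave the count with most higher members of the lists drawn. Of 27 tested genes 14 were higher and 1 was lower (Asns, -0.23), beside 7.62% and 9.68% over all genes, with a median of 0.19. In the fit of all 24 libraries 6 were higher and 0 lower. Ddit3, the factor CHOP, stood at 90.7, 92.8, 81.1 and 87.9 CPM in the Nur77 line at 5 h and 37.8, 39, 35.3 and 34.2 CPM at 0 h. For Ddit3, the GFP line had 105, 127, 112 and 117 CPM at 5 h and 74.3, 78.8, 76.5 and 90.2 CPM at 0 h. It stayed below the GFP line at both times, and its interaction of 0.75 (SE 0.10, adjusted p = 7.2e-06) was not called with all 24 libraries (adjusted p = 0.331). Ppp1r15a, the phosphatase subunit GADD34 that restarts translation, began lower in the Nur77 line (27.2 ± 1.4 CPM, against 40.1 ± 4.06 CPM in the GFP line) and ended level (208 ± 9.51 and 201 ± 15.6 CPM). The interaction was 0.62 (SE 0.09, adjusted p = 6.8e-05). Syvn1, a ubiquitin ligase of the endoplasmic reticulum, began level (40.6 ± 0.806 and 39.8 ± 1.36 CPM) and ended at 48.6 ± 3.31 CPM in the Nur77 line and 34 ± 0.566 CPM in the GFP line. The interaction was 0.49 (SE 0.07, adjusted p = 7.09e-05). Named after their values were seen, the sensor and effector genes Hspa5, Xbp1, Manf and Dnajb9 were at 0.22, 0.30, 0.38 and 0.74.

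Genes of the G1/S transition and DNA replication fell further in the Nur77 line where they differed. Of 30 tested genes 12 were lower and 0 higher (9.68% and 7.62% over all genes), and 11 were lower and 0 higher with DESeq2. At an unadjusted p under 0.05 edgeR gave 17 lower and 0 higher, with a median of -0.20. The median response was -1.19 in the Nur77 line and -0.96 in the GFP line, and the median line difference was 0.15 at 5 h and 0.32 at 0 h. With all 24 libraries 5 were lower. E2f2, an activator of S phase genes, fell to 6.83, 8.24, 5.44 and 6.62 CPM in the Nur77 line at 5 h, against 32.2, 33.1, 32.6 and 32.1 CPM at 0 h, and to 7.76, 6.9, 8.07 and 7.51 CPM in the GFP line at 5 h, against 22, 20.8, 20.6 and 18.7 CPM at 0 h. The lines met at 5 h after a higher start in the Nur77 line, and the interaction was -0.82 (SE 0.13, adjusted p = 9.46e-05). Cdt1, which licenses replication origins, started and ended lower in the Nur77 line, at 26.1 ± 1.17 CPM at 5 h and 65.3 ± 3.46 CPM at 0 h, against 50.3 ± 1.32 and 83 ± 6.8 CPM in the GFP line; the interaction was -0.61 (SE 0.09, adjusted p = 2.39e-05). Mcm6, a helicase subunit, had an interaction of -0.40 (SE 0.06, adjusted p = 7.81e-05). Its levels were 82.9 ± 3.32 CPM at 5 h and 267 ± 7.54 CPM at 0 h in the Nur77 line, and 93.1 ± 3.26 and 227 ± 9.86 CPM in the GFP line. Of 26 tested G2/M and mitosis genes 1 was higher and 4 were lower (7.62% and 9.68% over all genes), and 1 and 3 with DESeq2. Without 1 library at a time 0 to 3 were higher and 0 to 4 lower, and the lower count fell by more than 1.5 times in every such fit but those without Nur77 line 0 h replicate 2 and GFP line 5 h replicate 1 or 3. With all 24 libraries edgeR called none of them.

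Of 23 tested adhesion and cytoskeleton genes 5 were higher and 4 lower (7.62% and 9.68% over all genes). The fit of all 24 libraries gave 2 higher and 5 lower. The lowest and highest values of the list were those of Marcks and Akap12, which were close to silent in the GFP line at 0 h. Marcks, a protein kinase C substrate that binds actin and membranes (NM_008538, chromosome 10, 37133243 to 37138926), stood at 21.9, 17.2, 18.6 and 22.4 CPM in the Nur77 line at 5 h and 3.46, 3.95, 4.14 and 4.51 CPM at 0 h. For Marcks, the GFP line had 43.6, 45.6, 45.8 and 47.1 CPM at 5 h and 0.169, 0.205, 0.0842 and 0.273 CPM at 0 h. The GFP line started lower and ended higher in every library. The interaction was -5.61 (SE 0.25, adjusted p = 1.37e-12) and rests on 13 counts over the 4 GFP libraries at 0 h. Akap12, a scaffold of protein kinases A and C (NM_031185, chromosome 10, 4266329 to 4359471), stood at 17.6, 18.4, 20.4 and 18.2 CPM in the Nur77 line at 5 h and 1.61, 2.04, 1.54 and 1.42 CPM at 0 h. For Akap12, the GFP line had 0.337, 0.538, 0.642 and 0.30 CPM at 5 h and 0.846, 0.342, 0.589 and 0.273 CPM at 0 h. It rose in the Nur77 line alone by the test of each line (adjusted p = 1.03e-14 and 0.964), and the interaction was 3.52 (SE 0.40, adjusted p = 1.66e-06).

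Ppfia3, a liprin scaffold gene, was level at 0 h (2.67 ± 0.344 CPM in the Nur77 line and 2.71 ± 0.314 CPM in the GFP line) and reached 4.85, 4.05, 5.74 and 4.04 CPM in the Nur77 line and 23.7, 23.9, 21.8 and 23 CPM in the GFP line at 5 h. The interaction was -2.28 (SE 0.19, adjusted p = 1.26e-08). Hip1r, an endocytic adaptor gene, showed the reverse pattern, with 10.9 ± 1.12 and 11 ± 0.993 CPM at 5 h and 4.5 ± 0.42 and 0.977 ± 0.272 CPM at 0 h in the Nur77 and GFP lines. The interaction was -2.16 (SE 0.21, adjusted p = 1.31e-07). Tgm2, a transglutaminase gene, began at 8.76 ± 1.27 CPM in the Nur77 line and 41.8 ± 2.03 CPM in the GFP line and reached 173 ± 11.4 and 258 ± 8.1 CPM at 5 h, an interaction of 1.67 (SE 0.10, adjusted p = 7.73e-11) beside a smaller gain in CPM in the Nur77 line (164 against 216). Spire2, an actin nucleator gene, stood at 16.5 ± 2.08 and 15.2 ± 1.16 CPM in the Nur77 line and fell in the GFP line to 0.555 ± 0.0894 CPM at 5 h, against 2.0 ± 0.15 CPM at 0 h; the interaction was 1.93 (SE 0.23, adjusted p = 2.34e-06).

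The antisense RNA Kcnq1ot1 had an interaction of 3.18 (SE 0.73, adjusted p = 0.00909), but its libraries were uneven, and without GFP line 0 h replicate 4 the value was 2.47 (adjusted p = 0.0121). It stood at 51.6, 20.8, 16.5 and 26.2 CPM in the Nur77 line at 5 h and 9.82, 5.59, 4.14 and 6.06 CPM at 0 h. For Kcnq1ot1, the GFP line had 9.95, 8.83, 6.88 and 6.61 CPM at 5 h and 9.98, 9.73, 8.63 and 32 CPM at 0 h. No source used here gives the strand setting of the counting, so reads of this RNA and of Kcnq1 cannot be told apart. H1f2, a linker histone gene with near copies, stood at 8.87 ± 0.808 and 6.57 ± 0.264 CPM in the Nur77 line at 5 h and 0 h, and at 8.26 ± 0.483 and 20 ± 1.55 CPM in the GFP line. The interaction was 1.69 (SE 0.13, adjusted p = 3.52e-09).

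Some genes were far apart between the lines at one time and close at the other. Cx3cr1, the fractalkine receptor of monocytes and microglia (NM_009987, chromosome 9, 120048683 to 120068296), stood at 47.6, 55.4, 53.5 and 52.2 CPM in the Nur77 line at 5 h and 164, 154, 163 and 156 CPM at 0 h. For Cx3cr1, the GFP line had 41.6, 41, 38.6 and 39 CPM at 5 h and 37.9, 39.4, 40.8 and 31.4 CPM at 0 h. It fell in the Nur77 line (-1.61), with no detected change in the GFP line (0.10, adjusted p = 0.183). The interaction was -1.72 (SE 0.09, adjusted p = 2.49e-11). Gpr84, a receptor of medium-chain fatty acids, rose to 279 ± 12.2 CPM in the Nur77 line at 5 h, against 45.5 ± 2.92 CPM at 0 h, and to 228 ± 2.91 CPM in the GFP line at 5 h, against 12.8 ± 0.576 CPM at 0 h. The interaction was -1.54 (SE 0.07, adjusted p = 2.1e-12). Pilra, an inhibitory receptor gene, was at -2.08 (SE 0.10, adjusted p = 2.35e-12), with 114 ± 4.52 and 38.8 ± 1.93 CPM in the Nur77 line at 5 h and 0 h and 58.7 ± 2.22 and 4.66 ± 0.699 CPM in the GFP line. Its annotated span overlaps the end of Zcwpw1, a chromatin reader gene. Zcwpw1 stood at 149 ± 8.71 and 175 ± 3.96 CPM in the Nur77 line and 9.7 ± 1.05 and 4.88 ± 0.356 CPM in the GFP line (interaction -1.23 (SE 0.10, adjusted p = 1.93e-08)). Without a known strand setting reads in the overlap cannot be told apart.

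Mapre2, a microtubule end-binding gene, was level at 0 h and apart at 5 h, with 103 ± 3.53 CPM in the Nur77 line at 5 h and 85.6 ± 2.22 CPM at 0 h, against 252 ± 6.49 and 80.5 ± 4.21 CPM in the GFP line. The interaction was -1.38 (SE 0.06, adjusted p = 1.37e-12). Icam1, the endothelial and leukocyte adhesion ligand (NM_010493, chromosome 9, 21015940 to 21028814), stood at 428, 447, 453 and 447 CPM in the Nur77 line at 5 h and 86.5 ± 2.13 CPM at 0 h, against 735, 810.5, 770.5 and 747 CPM in the GFP line at 5 h and 67.7 ± 3.54 CPM at 0 h. Its order turned over between 0 h and 5 h, and the interaction was -1.14 (SE 0.06, adjusted p = 2.16e-11). Myo1f, a myosin gene of leukocytes, was lower in the Nur77 line at both times, with 25.9 ± 0.711 CPM at 5 h and 133 ± 3.19 CPM at 0 h, against 109.7 ± 3.49 and 287 ± 18.1 CPM in the GFP line. In the Nur77 line it fell by more on the log2 scale (-2.36 against -1.39) and by less in CPM (-107 against -177). The interaction was -0.97 (SE 0.07, adjusted p = 8.46e-10), with an adjusted p of 0.0823 in the fit of all 24 libraries.

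A called rise in one line together with a called fall in the other was found in 109 genes. Besides H1f2, the 2 given here for size had low counts. Mfsd9, a transporter gene, was at 1.2 ± 0.242 and 2.66 ± 0.251 CPM in the Nur77 line at 5 h and 0 h, and at 5.85 ± 0.582 and 3.52 ± 0.712 CPM in the GFP line (-1.81 (SE 0.25, adjusted p = 1.78e-05)). Etl4 was at 1.26 ± 0.134 and 0.768 ± 0.226 CPM in the Nur77 line, and at 0.922 ± 0.167 and 2.3 ± 0.565 CPM in the GFP line (2.02 (SE 0.36, adjusted p = 0.000366)).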

How the data were processed

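The labels' protocols name silica columns with DNase treatment for the RNA and the KAPA mRNA HyperPrep kit for the libraries. The submitters' processing notes list CASAVA 1.8.2, the aligner HISAT2 2.1.0 and the build mm10. Not given in the sources used here are the annotation, the tool that counted reads and whether it used strand. Estimated counts, not normalized, were deposited for 42361 transcripts in 1 table of 24 columns. Every value was a multiple of 0.5 (tolerance 1e-09), and 53.7% of those above 0 were whole. The labels do not say whether replicates were separate cultures, so the spread behind each p-value is that between these libraries and may be technical.

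Symbols came from the RefSeq table of GRCm38.p6 (42198 transcripts) and from GENCODE (70), and 93 transcripts with 0.497% of the counts kept their identifiers. Each of 25160 genes was represented by 1 transcript, that of highest mean. Coordinates are GRCm38 (mm10), counted from 1. Estimated counts were rounded, filtered with filterByExpr and scaled with TMM factors (trimmed mean of M-values, 0.890 to 1.15). Means of the 4 groups were fitted to the 16 libraries in edgeR 4.0.16 (R 4.3.3) by quasi-likelihood with the robust option. There were 12 residual degrees of freedom, and the common biological coefficient of variation was 0.0704. Benjamini-Hochberg adjustment ran over all 12081 genes, and adjusted p-values under 0.05 count as calls. Standard errors are the absolute log2 change divided by the square root of F. Levels are TMM-adjusted CPM with the SD over 4 libraries, apart from the values of cell type markers, which were not TMM-adjusted. The fitting steps were tested on simulated data.

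The gene lists, their members and the genes always named were chosen with earlier results of these data known. Named were the cytokine and chemokine genes Tnf, Il1b, Il6, Il10, Il12b, Ifnb1, Ccl2 and Cxcl10, with Acod1, Nos2, Ptgs2, Nr4a1, Jun and Fos; the 8 higher and 8 lower called genes with the largest interaction, at least 10 CPM in 1 group and at least 12 counts summed in each; up to 3 genes per described list and per class of levels by smallest adjusted p; and up to 4 genes with opposite directions. Alternatives were all 24 libraries, DESeq2 1.42.0 (its test, and its size factors within edgeR), no filter, 1 CPM in 4 libraries, a replicate block, a block within line, the mean over transcripts, the omission of the ribosomal transcript NR_046233 and of each library in turn. The omission of Nur77 line 1 h replicate 2 from the fit of all libraries was chosen after seeing the data. Some genes that these rules name are not reported here. Promoter sequences are from RefSeq.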

Additional observations from a re-analysis of the deposited data

Results flagged for a closer look

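In 27 of 272 sets of a named gene in 1 group of 4 libraries, one library lay apart from the other 3 by Dixon's 95% criterion; chance alone marks about 1 in 20 such sets. In the Nur77 line at 5 h this was Dusp5 at 35.3 CPM in replicate 4. In the Nur77 line at 0 h these were Fos at 4.9 CPM in replicate 4, Il1b at 0.451 CPM in replicate 4, Il6 at 0.129 CPM in replicate 4, Mapre2 at 88.9 CPM in replicate 1 and Mcm6 at 278 CPM in replicate 3. To these were added Myo1f at 128 CPM in replicate 4, Psmb9 at 16.9 CPM in replicate 3, Tlr2 at 227 CPM in replicate 2 and Tnfsf9 at 32.8 CPM in replicate 3. In the GFP line at 5 h these were Cd44 at 2926 CPM in replicate 2, Dusp7 at 32.8 CPM in replicate 1, Ifnar1 at 161 CPM in replicate 4, Nr4a1 at 2.1 CPM in replicate 4 and Pilra at 62 CPM in replicate 1. In the GFP line at 0 h these were Acod1 at 4.66 CPM in replicate 2, Ccl2 at 17.4 CPM in replicate 1, Cd14 at 540 CPM in replicate 4, Cd274 at 16.3 CPM in replicate 1 and Dusp5 at 7.16 CPM in replicate 3. To these were added Ifitm3 at 598 CPM in replicate 4, Kcnq1ot1 at 32 CPM in replicate 4, Oas3 at 34 CPM in replicate 2, Plau at 457 CPM in replicate 3 and Ppp1r15a at 46.2 CPM in replicate 4. To these were added Sod2 at 121 CPM in replicate 1 and Tnfsf9 at 22.1 CPM in replicate 3. The other 3 libraries of the GFP line at 0 h stood at 1.14 to 1.27 CPM for Acod1 and at 8.63 to 9.98 CPM for Kcnq1ot1.

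Apart from the genes always named, the naming rules took only genes with a called interaction, so the number called follows largely from the choice. Over all genes tested 17.3% were called. The response to LPS differed between the lines by the test of the interaction (edgeR's quasi-likelihood test with Benjamini-Hochberg adjustment) in 64 of the named genes. The interaction was positive by at least 1 on the log2 scale in 13, with these log2 interactions: Akap12 3.52, Kcnq1ot1 3.18, Fos 2.06, Usp18 2.04, Etl4 2.02, Spire2 1.93, H1f2 1.69, Tgm2 1.67, Egr1 1.66, Nos2 1.64, Btg2 1.37, Oas3 1.16 and Dusp2 1.07. It was positive and smaller in 14, with log2 interactions of Dusp5 0.81, Ddit3 0.75, Osm 0.74, Clec4d 0.73, Ifitm3 0.66, Nr4a1 0.65, Ppp1r15a 0.62, Cd14 0.58, Fosl2 0.57, Syvn1 0.49, Ccl3 0.46, Cd44 0.39, Jun 0.37 and Sod2 0.31. It was negative by at least 1 in 22, with log2 interactions of Marcks -5.61, Ccl22 -3.08, Gbp2 -2.58, Ppfia3 -2.28, Hip1r -2.16, Irf1 -2.16, Traf1 -2.09, Pilra -2.08, Cxcl10 -1.82, Mfsd9 -1.81, Cx3cr1 -1.72, Nfkbie -1.71, Gpr84 -1.54, Tlr2 -1.53, Tnfaip3 -1.43, Ptgs2 -1.42, Mapre2 -1.38, Mt2 -1.36, Plau -1.34, Nfkbia -1.30, Zcwpw1 -1.23 and Icam1 -1.14. It was negative and smaller in 15, with log2 interactions of Myo1f -0.97, Ticam2 -0.94, Tnf -0.94, Cd274 -0.88, Psmb9 -0.85, E2f2 -0.82, Zfp36l2 -0.71, Ifnar1 -0.65, Jak2 -0.64, Tnfsf9 -0.64, Dusp7 -0.63, Cdt1 -0.61, H2-Q4 -0.50, Mcm6 -0.40 and Ccl2 -0.39.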

How the results depend on the processing

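The number of called interactions depended on which libraries were in the fit, where the filter, the scaling and the spread were all estimated anew. With all 24 libraries in the fit 961 genes were called, 336 higher and 625 lower, against 920 higher and 1169 lower from the 16 libraries, and 955 of the 961 were shared. In a fit of 23 libraries without Nur77 line 1 h replicate 2, an alternative chosen after seeing the data, 1681 were called (642 higher, 1039 lower), 1647 of them shared; what else contributes was not tested. The other counts were 2219 with DESeq2 (2015 shared), 2113 with its size factors, 1878 with no filter, 2105 with 1 CPM in 4 libraries, 2083 with the mean over transcripts and 2090 without NR_046233. A replicate block gave 2067 calls (1962 shared) and a block within line 1725 (1676 shared). Deviations of same-numbered libraries correlated at -0.304 to 0.186, with pairs on both sides of 0 and most of them below 0.1. Differently numbered libraries were not compared, so whether the numbers pair the samples is not known. Without 1 library at a time 1712 to 2243 genes were called, 738 to 1102 higher and 972 to 1187 lower, and 60 to 83 and 134 to 190 by at least 1 on the log2 scale. The calls of LPS were 8295 to 8861 in the Nur77 line and 7914 to 8386 in the GFP line, and those between the lines 6155 to 7067 at 5 h and 5305 to 6027 at 0 h.

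Of the 64 named genes called, 50 kept the call and the sign under all 26 alternatives. The other 14 lost the call under at least 1, and none changed sign. Most of the 64 were named because they had passed this test, so the 50 do not stand for all calls. Of all 2089 calls, 955 were kept with all 24 libraries in the fit. Ccl3, Cd44, Cxcl10, Ddit3, Dusp7, Jak2, Jun, Myo1f, Osm, Ptgs2 and Tnfsf9 lost it only with all 24 libraries. Ccl2, Nos2 and Nr4a1 lost it in other fits too, as given with their values. Il1b and Il6, never called, turned sign: without 1 library Il1b lay between -0.74 and 2.07, with 0.11 and 0.08 among the positive values, and Il6 between -0.064 and 2.83, with -0.000333 as the other negative value. Depth limits genes near 0 before LPS: Il12b had no count in the Nur77 line at 0 h.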

Other observations

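Most lipid synthesis genes were not called, and those called were mostly higher. Of 27 tested sterol and fatty acid synthesis genes 8 were higher and 1 was lower (7.62% and 9.68% over all genes). The median interaction was 0.12, beside -0.01 over all genes. The single lower gene was Scd1 (-0.20), which lost its call in most fits that left out 1 library and in the fit of all 24 libraries, where 6 were higher. The genes in this part were named after their values were seen. Hmgcs1, an early enzyme of the mevalonate pathway, averaged 96.4 CPM in the Nur77 line at 5 h and 54.2 CPM at 0 h, against 71.8 and 72.5 CPM in the GFP line, an interaction of 0.86 (SE 0.11, adjusted p = 5.98e-06). Fasn, fatty acid synthase, averaged 188 and 187 CPM in the Nur77 line and 148 and 235 CPM in the GFP line, an interaction of 0.68 (SE 0.22, adjusted p = 0.0499). Abca1, the exporter of cholesterol that LXR controls, was higher at 1.09 (SE 0.24, adjusted p = 0.00688), while Abcg1, a second such exporter, was lower at -0.41 (SE 0.08, adjusted p = 0.000482). In all 6 of 21 tested lipid handling genes were higher and 4 lower (7.62% and 9.68% over all genes), and with all 24 libraries 4 and 1.

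Of 20 tested glycolysis genes 5 were higher and 2 lower (3 and 0 with all 24 libraries), beside 7.62% and 9.68% over all genes. The higher count was 3 to 7 when 1 library was left out (past 1.5 times without Nur77 line 5 h replicate 3, Nur77 line 0 h replicate 4 or GFP line 5 h replicate 1). Hk2, the inducible hexokinase, averaged 371 CPM in the Nur77 line at 5 h and 107 CPM at 0 h, against 330.1 and 159.5 CPM in the GFP line, an interaction of 0.74 (SE 0.09, adjusted p = 3.34e-06). Of 28 tested nuclear genes of the respiratory chain none was called in either direction by edgeR or DESeq2 (1 higher and 0 lower at an unadjusted p under 0.05 in edgeR), and of 24 citric acid cycle genes 2 were lower, beside 9.68% over all genes. That count was 1 to 3 without 1 library at a time, with 1 without GFP line 5 h replicate 2, and 0 with all 24 libraries. Among 18 apoptosis regulators 2 were higher and 4 lower (7.62% and 9.68% over all genes), with the BH3-only gene Bcl2l11 (Bim) at 1.12 (SE 0.09, adjusted p = 8.98e-09). The lower count was 2 without Nur77 line 0 h replicate 2 or GFP line 5 h replicate 1. All 24 libraries in the fit gave 2 higher and 2 lower. Of 8 tested osteoclast markers 0 were higher and 2 lower by edgeR (7.62% and 9.68% over all genes), 6 were not called, and the median was 0.0033. DESeq2 gave the same counts, as did edgeR at an unadjusted p under 0.05. One of the 2 lower genes was Acp5, tartrate-resistant acid phosphatase. It averaged 1.11 and 0.936 CPM in the Nur77 line at 5 h and 0 h and 35.8 and 7.24 CPM in the GFP line, an interaction of -1.96 (SE 0.30, adjusted p = 7.25e-05). Of 21 macrophage identity genes 6 were higher and 3 lower (7.62% and 9.68% over all genes), with a median of 0.09. With all 24 libraries 2 were higher and 1 was lower. The higher ones included Cd74, the invariant chain, at 0.38, and the complement receptor chain gene Itgam at 0.28, and the lower ones were Fcgr1 at -0.56, the growth factor receptor gene Csf1r at -0.42 (SE 0.09, adjusted p = 0.00304) and Adgre1, the F4/80 antigen, at -0.47 (SE 0.10, adjusted p = 0.00123). The share of genes called ran from 12.4% on chromosome X to 21.5% on chromosome 1.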
